A study of Mus musculus with 6 samples.

Results

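Small nucleolar RNA (snoRNA) host genes are transcribed as longer RNAs whose introns carry snoRNAs. The 9 genes described here are Gas5, Snhg1, Snhg3, Snhg5, Snhg6, Snhg8, Snhg12, Snhg15 and Epb41l4aos, taken by name from the 54146 genes of the table. For 8 of them the name in the table matched, and Snhg15, which the table lists under a clone name, was found by its gene identifier. RNAseq was carried out on D2A1, a mouse mammary tumor cell line, grown in 3D in Matrigel with 10% FBS. The cells were treated with recombinant SLURP1 (rSLURP1, 50 nM, 3 libraries) or with recombinant GST (rGST, 50 nM, 3 libraries), the control protein. All 6 libraries come from this line, with the genotype labelled as control, and by the methods the spheroids were harvested on day 5. The question was which genes differ between treated and control cells in vitro.

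During splicing, the introns of a host gene are cut out and trimmed to mature snoRNAs, which sit in ribonucleoprotein particles that modify ribosomal and other RNAs. Box C/D snoRNAs guide methylation of the ribose, and box H/ACA snoRNAs guide the conversion of uridine to pseudouridine. What is left after splicing is the spliced host RNA. In many noncoding hosts it has only short reading frames, is bound by ribosomes and is then degraded by nonsense-mediated decay, so that its level rests on transcription as well as on translation and decay. Several hosts, Gas5 among them, belong to the 5′TOP genes, whose RNAs start with a C followed by pyrimidines, as do the RNAs of ribosomal proteins. Mature snoRNAs have no poly(A) tail, and the libraries were made from poly(A) RNA, so the values below are those of the host RNA.

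To show what the genes encode, 3 of their snoRNAs are given as the GENCODE M21 transcripts on GRCm38 (mm10). In the box C/D snoRNAs, the capitals mark box C (ATGATGA or GTGATGA) and box D (CTGA). In the box H/ACA snoRNA, they mark the ACA near the 3′ end.
Snord47 in Gas5, chr1:161038082-161038158, plus strand: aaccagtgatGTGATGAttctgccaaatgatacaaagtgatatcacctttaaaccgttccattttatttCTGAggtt
Snord99 in Snhg12, chr4:132310691-132310764, plus strand: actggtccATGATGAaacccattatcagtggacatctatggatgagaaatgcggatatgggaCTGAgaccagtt
Snora24 in Snhg8, chr3:123507937-123508066, minus strand: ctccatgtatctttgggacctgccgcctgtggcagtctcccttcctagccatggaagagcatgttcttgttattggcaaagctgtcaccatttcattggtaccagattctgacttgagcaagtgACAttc

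The starts of the host RNAs are shown because the 5′TOP tract lies there. Each line holds the 10 bases before and the first 20 bases from a start site of RefSeq (GRCm38.p6), read on the strand of the gene. The capitals mark a tract of a C followed by at least 4 further C or T that begins within 5 bases of the start.
Gas5, upstream start, chr1:161034591-161034620, plus strand: gcgggcccgcgagctcgacagcccggagcc
Gas5, downstream start, chr1:161035156-161035185, plus strand: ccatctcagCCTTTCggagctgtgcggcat
Snhg8, chr3:123508317-123508346, minus strand: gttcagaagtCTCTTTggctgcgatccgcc
Snhg12, chr4:132308668-132308697, plus strand: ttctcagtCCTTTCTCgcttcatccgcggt
Snhg3, chr4:132353667-132353696, minus strand: gaccacgcctgaCTTCCgggcgttacttaa
Snhg1, chr19:8723477-8723506, plus strand: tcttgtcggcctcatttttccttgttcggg
Snhg5, chr9:88522878-88522907, minus strand: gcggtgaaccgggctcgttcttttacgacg
Snhg15, chr11:6528741-6528770, minus strand: ctgtgaccgtaactttaagcacacgtgagc

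Such a tract was found at 4 of the 8 starts, which belong to 7 of the 9 genes, against 18.3% of the 32851 starts of the same table. It was also frequent in related sets, at 35.3% of 17 starts of other noncoding hosts, 35% of 20 starts of ribosomal protein hosts and 41.2% of 17 starts of snoRNA particle proteins. It was present in Gas5 and Snhg8, the pair that was higher with rSLURP1, and also in Snhg12, which was lower, and Snhg3, which did not pass the test. The E-box CACGTG, searched on both strands of the 300 bases around the start (250 before and 50 after), was found in Snhg15 alone, against 7.15% of all starts. These are matches of letters in the annotated windows. The search matched only 7 of the 20 starts of ribosomal protein hosts. A start without a match therefore does not show that its gene is not 5′TOP. Snhg6 and Epb41l4aos have no entry. The first 30 bases from the downstream start of Gas5 were in 9 of its 25 GENCODE M21 transcripts. Those from its upstream start were in 0 of them.

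By GENCODE M21, each of the genes holds between 1 and 10 snoRNA genes on its own strand, 31 in all. Gas5 (ENSMUSG00000053332.13, chromosome 1, 161034422 to 161038539, plus strand) holds 10 in 25 annotated transcripts. Snhg1 (ENSMUSG00000108414.1, chromosome 19, 8723475 to 8726443, plus strand) holds 8, and Snhg12 (ENSMUSG00000086290.9, chromosome 4, 132308623 to 132311024, plus strand) holds 5. Snhg3 (ENSMUSG00000085241.7, chromosome 4, 132348014 to 132353686, minus strand) and Snhg5 (ENSMUSG00000097195.9, chromosome 9, 88521050 to 88522929, minus strand) hold 2 each. A single snoRNA gene lies in each of Snhg6 (ENSMUSG00000098234.7, chromosome 1, 9941959 to 9944118, minus strand), Snhg8 (ENSMUSG00000104960.1, chromosome 3, 123507552 to 123508404, minus strand), Snhg15 (ENSMUSG00000085156.7, chromosome 11, 6525591 to 6528760, minus strand) and Epb41l4aos (ENSMUSG00000087590.2, chromosome 18, 33794892 to 33795986, plus strand).

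Of the 9 host genes, Snhg8 and Gas5 were higher with rSLURP1, Snhg12 and Epb41l4aos were lower, and Snhg1, Snhg3, Snhg5, Snhg6 and Snhg15 did not pass the test. Genes were compared with limma on log2(TPM + 1) at an adjusted p-value of 0.05 over 12301 tested genes. TPM, the authors' unit, is abundance per transcript length, scaled to the same total in each library. In the same test 8.66% of all genes were called higher and 58.5% lower, and the median log2 fold change of all genes was -0.33. The median of the 9 genes was 0.04, and 8 of them lay above the median of all genes. After median-ratio scaling, which divides each library by the median ratio of its genes and centers all genes near 0, 26.6% of all genes were higher and 24.6% lower, and 6 of the 9 host genes were higher and 0 lower. The sign of Snhg3, Snhg12 and Snhg15 reversed under that scaling. The depth of the libraries is unknown, since it cannot be recovered from TPM. The labels do not say whether the libraries came from separate cultures, so p-values measure the spread between these libraries. In bulk RNA, fewer cells of a kind and less RNA per cell cannot be told apart.

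**Figure D1:**
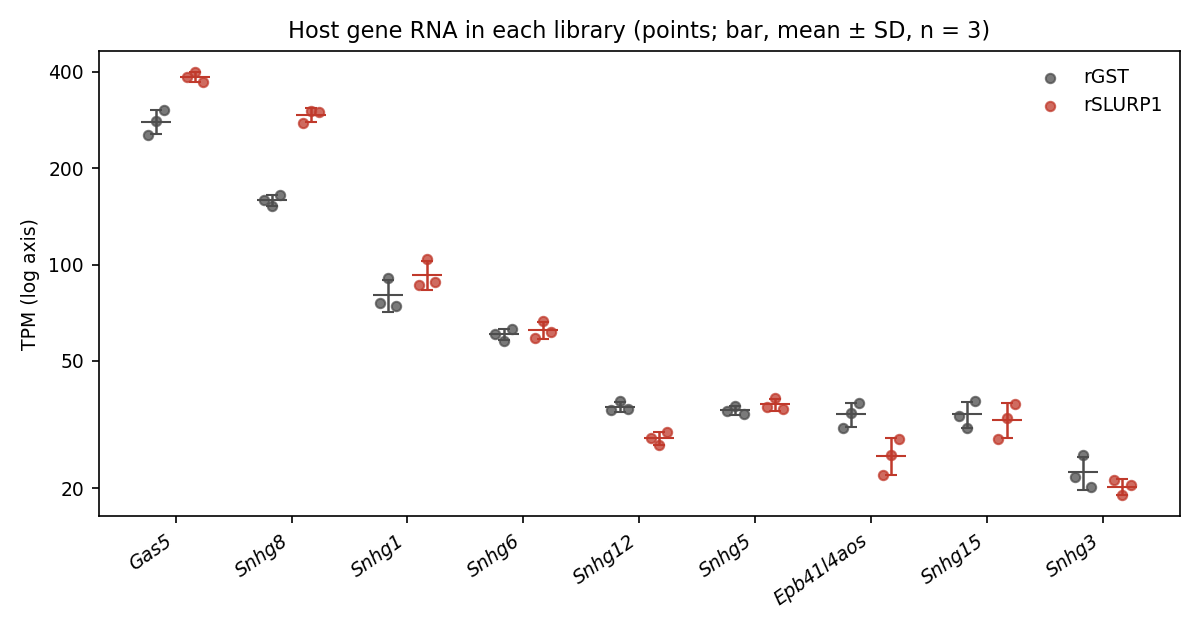
TPM (log axis) of the 9 host genes in the 3 rGST and 3 rSLURP1 libraries, ordered by the rGST mean; points are libraries and bars the mean ± SD. The groups of points do not overlap for Gas5 and Snhg8, where rSLURP1 lies above rGST, nor for Snhg12 and Epb41l4aos, where it lies below.

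Snhg8, a noncoding host of the box H/ACA snoRNA Snora24, had the largest change of the 9. Its TPM was 158.63, 152.59 and 165.5 with rGST and 276.67, 302.2 and 300.58 with rSLURP1. The groups did not overlap, and the lowest rSLURP1 library lay far above the highest rGST library. The means were 159 ± 6.46 and 293 ± 14.3 (SD, n = 3 each), which is 1.84 times the rGST level. The log2 fold change was 0.88 (standard error, SE, 0.0498, limma adjusted p = 7.46e-06), which placed Snhg8 above 98.2% of the tested genes.

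Gas5, the growth arrest-specific transcript and host of box C/D snoRNAs, was the most abundant host of the 9 in both groups. It had 254.7, 280.2 and 303.08 TPM with rGST and 384.76, 399.72 and 372.05 TPM with rSLURP1. The rGST libraries spread more than the rSLURP1 libraries, and the groups did not overlap. The mean rose from 279 ± 24.2 to 386 ± 13.9 TPM (SD, n = 3 each), 1.38 times the rGST level. The log2 fold change was 0.47 (SE 0.0647, limma adjusted p = 5.01e-04), above that of 94.5% of the tested genes. The 95% interval of Snhg8 (0.76 to 1.0) lay above that of Gas5 (0.32 to 0.62). Gas5 and Snhg8 were called higher in each of the 17 alternative settings, with log2 fold changes from 0.40 to 0.83 and from 0.85 to 1.24.

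Snhg12, which carries both H/ACA and C/D snoRNAs, was lower. It had 35.04, 37.53 and 35.33 TPM with rGST and 28.74, 27.27 and 29.91 TPM with rSLURP1. The groups did not overlap, and the mean was 0.796 times the rGST level (36 ± 1.36 and 28.6 ± 1.32 TPM, SD, n = 3 each). The log2 fold change was -0.32 (SE 0.0578, limma adjusted p = 0.00191), 0.01 from the median of all genes, and it was 0.03 (adjusted p = 0.681 in limma) after median-ratio scaling.

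Epb41l4aos, a host of a box H/ACA snoRNA on the strand opposite to its neighbour Epb41l4a, had 30.95, 34.39 and 36.89 TPM with rGST and 21.94, 25.37 and 28.6 TPM with rSLURP1. The lowest rGST library was above the highest rSLURP1 library. The means were 34.1 ± 2.98 and 25.3 ± 3.33 TPM (SD, n = 3 each), and the log2 fold change was -0.42 (SE 0.105, limma adjusted p = 0.00888). On the median-ratio scale it was at -0.07 (adjusted p = 0.609 in limma). Non-overlapping libraries were found in 9.75% of all tested genes in the higher direction and in 61.7% in the lower direction, against 2 of 9 host genes in each.

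The other 5 genes overlapped between the groups. Snhg1, a host of box C/D snoRNAs, had 75.98, 90.74 and 74.03 TPM with rGST and 86.57, 103.87 and 88.37 TPM with rSLURP1. Its second library was the highest of each group. The log2 fold change of Snhg1 was 0.21 (95% interval -0.02 to 0.44, adjusted p = 0.0887 in limma), 0.57 (adjusted p = 0.00147 in limma) after median-ratio scaling, and 0.30 (adjusted p = 0.0207 in limma) without the second rGST library. Snhg1 was called higher in only 6 of the 17 alternative settings. Its log2 fold change ran from 0.13 to 0.57 over them, with adjusted p up to 0.256 in limma.

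Snhg5, the host of Snord50a and Snord50b, had 34.81, 36.21 and 34.03 TPM with rGST and 35.89, 38.37 and 35.38 TPM with rSLURP1, with a log2 fold change of 0.06 (95% interval -0.07 to 0.19, adjusted p = 0.360 in limma). Snhg6, the host of Snord87, had 60.54, 57.88 and 62.95 TPM with rGST and 58.88, 66.48 and 61.36 TPM with rSLURP1, with a log2 fold change of 0.04 (95% interval -0.10 to 0.18, adjusted p = 0.568 in limma). For both, the libraries of the groups overlapped. After median-ratio scaling their log2 fold changes were 0.41 and 0.40, and both passed the test (adjusted p = 3.08e-04 and 5.38e-04 in limma).

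Snhg15, the host of Snora9, had 33.7, 30.96 and 37.44 TPM with rGST and 28.48, 33.24 and 36.67 TPM with rSLURP1. The libraries of each group spread over more than the difference between the means, and the log2 fold change was -0.05 (95% interval -0.30 to 0.19, adjusted p = 0.661 in limma). Snhg3, the host of Snora73a and Snora73b, had 21.72, 25.37 and 20.13 TPM with rGST and 21.2, 19.01 and 20.43 TPM with rSLURP1, with a log2 fold change of -0.14 (95% interval -0.35 to 0.08, adjusted p = 0.221 in limma). After median-ratio scaling, Snhg15 had 0.30 (adjusted p = 0.0459 in limma) and Snhg3 had 0.21 (adjusted p = 0.107 in limma).

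**Figure D2:**
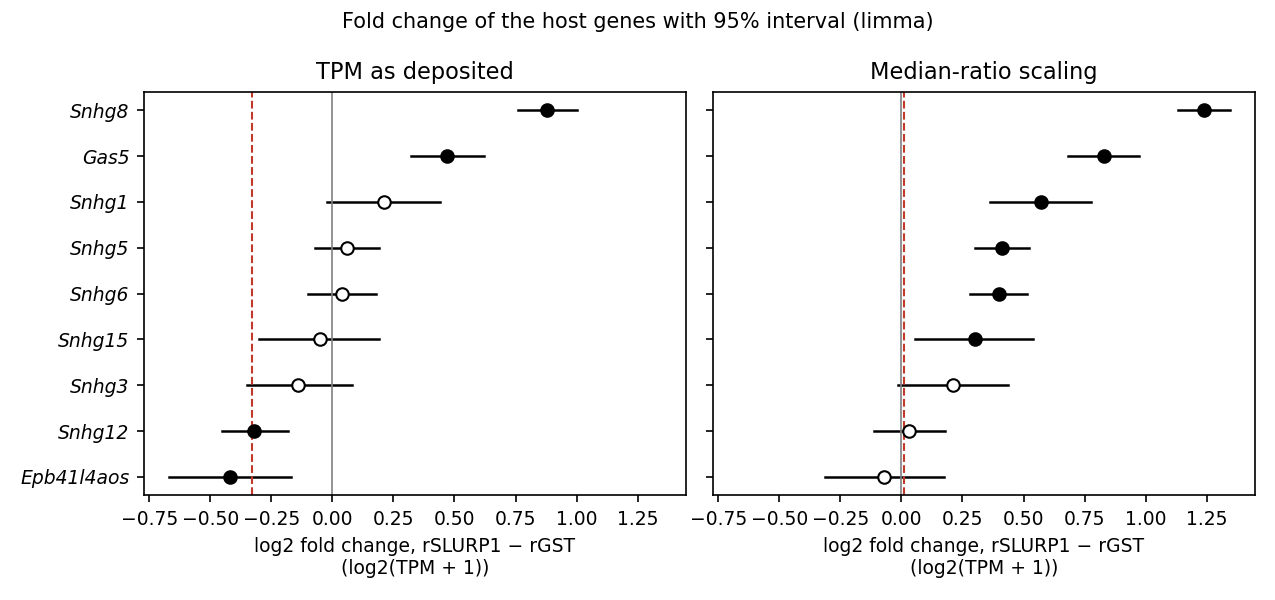
Log2 fold change (rSLURP1 minus rGST, on log2(TPM + 1)) of the 9 host genes with its 95% interval in limma, as deposited (left) and after median-ratio scaling (right); filled points have an adjusted p of 0.05 or less, the grey line is 0 and the dashed line the median of all tested genes. The order from Snhg8 (0.88) to Epb41l4aos (-0.42) was alike in both panels, and the zero line moved relative to it.

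The order of levels could be read across genes because TPM is per transcript length. With rGST the mean TPM ran from Gas5 through Snhg8, Snhg1 and Snhg6 (60.5), each separated from the next by its library range. Snhg12, Snhg5, Epb41l4aos and Snhg15 followed at 34.0 to 36 TPM, with overlapping neighbours, and Snhg3 was the lowest at 22.4 TPM. With rSLURP1 the first 4 places were the same and again separated. Snhg5, Snhg15, Snhg12 and Epb41l4aos then followed at 36.5, 32.8, 28.6 and 25.3 TPM, each overlapping its neighbour, and Snhg3 was again lowest at 20.2 TPM.

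The share of each gene in the sum of the 9 does not depend on how libraries are scaled to each other. The sum was 706.1, 745.9 and 769.4 TPM with rGST and 943.1, 1015.5 and 973.4 TPM with rSLURP1. Gas5 and Snhg8 together held 58.5%, 58.0% and 60.9% of it with rGST and 70.1%, 69.1% and 69.1% with rSLURP1. This pair was added up because both genes were called higher, so the larger joint share with rSLURP1 follows from that choice and was not tested. Snhg8 alone moved from 21.5% ± 1.0 to 30.0% ± 0.799, whereas Gas5 at 37.7% ± 1.66 and 39.5% ± 1.29 overlapped between groups (SD, n = 3 each). The summed TPM of the other 7 genes was 302 ± 10.2 for the rGST libraries and 299 ± 16.1 for the rSLURP1 libraries (SD, n = 3). Sums of TPM, unlike shares, depend on the scaling. After median-ratio scaling Snhg1, Snhg5, Snhg6 and Snhg15 of these 7 were called higher. The ratio of Gas5 to Snhg8 was 1.61, 1.84 and 1.83 with rGST and 1.39, 1.32 and 1.24 with rSLURP1.

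Other noncoding snoRNA hosts were taken from a list of known names. Of 16 found in the table, 11 were tested, and 2 (18.2%) were higher and 6 (54.5%) lower in limma. Over all tested genes the shares were 8.66% and 58.5%, so the share called lower was near that of all genes. The median log2 fold change of the 11 was -0.40. The higher ones were 2410006H16Rik and Zfas1. 2410006H16Rik had 296.43, 272.31 and 267.81 TPM with rGST and 397.67, 386.29 and 375.78 TPM with rSLURP1, without overlap. Its log2 fold change of 0.47 (SE 0.0479, limma adjusted p = 1.05e-04) and its level were close to those of Gas5. Zfas1, a host of box C/D snoRNAs, rose only from 120.2 ± 2.96 to 132 ± 4.99 TPM (SD, n = 3 each; log2 fold change 0.13, adjusted p = 0.0287 in limma). The call of Zfas1 was lost in 7 of 17 alternatives, among them the replicate block (adjusted p = 0.0643 in limma), limma without trend (adjusted p = 0.0728) and 5 of the 6 fits without 1 library, each but that without rSLURP1 replicate 2 (adjusted p up to 0.0933 in limma). The largest decreases were in Snhg18 (log2 fold change -0.85), Snhg20 (-0.69), Dancr (-0.57) and Snhg17 (-0.53). With median-ratio scaling 2 of the 11 were higher and 2 lower.

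Ordered by their mean TPM with rGST, the 4 most abundant of the 20 tested noncoding hosts, Gas5, 2410006H16Rik, Snhg8 and Zfas1, were the 4 that were called higher, of which Zfas1 lost its call in the alternatives given above. The 8 that were called lower had means between 13.2 and 42.4 TPM. This order was looked at after the values were seen and is a description. Among all 1499 tested genes with an rGST mean of at least 100 TPM, 18.6% were called higher.

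**Figure D3:**
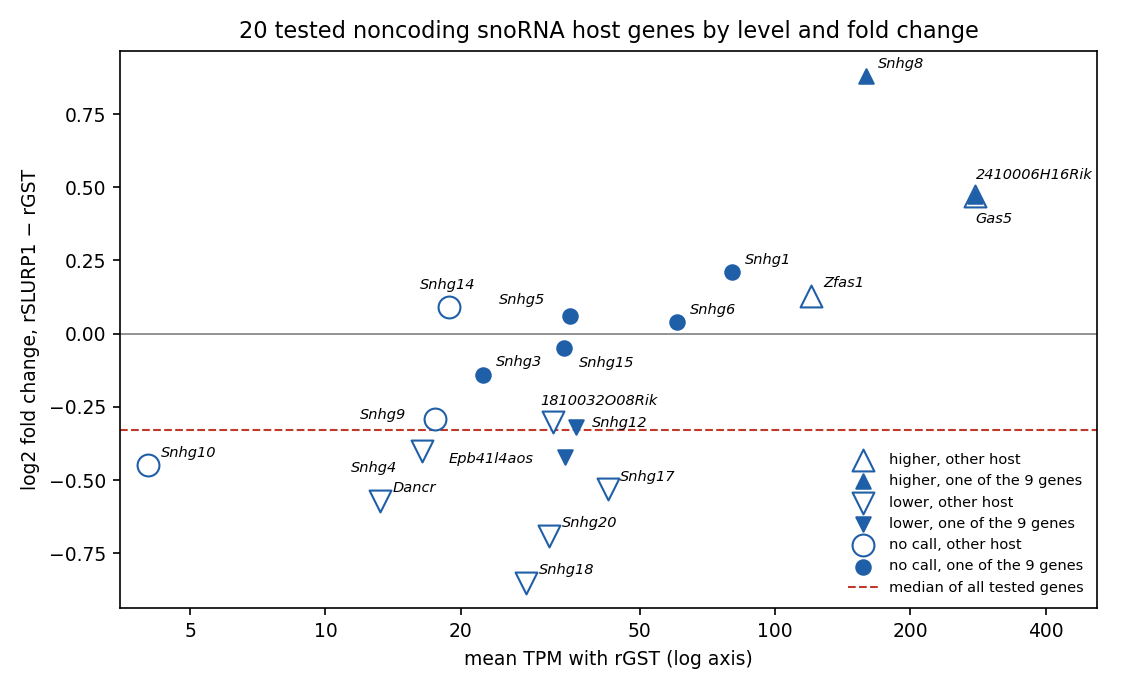
Mean TPM with rGST (log axis) against the log2 fold change (rSLURP1 minus rGST) of the 20 tested noncoding snoRNA hosts; filled marks are the 9 genes described here, open marks the other hosts, and triangles show the direction of a call in limma at an adjusted p of 0.05. The 4 hosts with the highest TPM, Gas5, 2410006H16Rik, Snhg8 and Zfas1, are the upward triangles.

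Protein-coding hosts were taken from the annotation as genes that hold an annotated snoRNA on their strand. Of the 30 such ribosomal protein genes, 29 (96.7%) were higher and 0 lower in limma, and the median log2 fold change was 0.52. The largest increases were in Rps12 and Rps20 (0.76 each) and in Rps2 and Rpl10 (0.74 each). Rpl3 was the exception, lower without overlap but not past the test (log2 fold change -0.10, adjusted p = 0.0796 in limma). Of the 170 other tested coding hosts, 15 (8.82%) were higher and 110 (64.7%) lower, beside 8.66% and 58.5% of all tested genes. Their median was -0.32, close to that of all genes. The changes of greatest size in this list were decreases, in Itgbl1 (-6.05), Mertk (-1.66), Rbmx (-1.51) and Akap7 (-1.31), and long genes can hold a predicted snoRNA by position alone. With median-ratio scaling 30 of the ribosomal protein hosts were higher (median 0.89), and with quantile normalization 23 were higher and 2 lower (median 0.22). For the other coding hosts, median-ratio scaling gave 52 higher and 37 lower. Among the 9 host genes Gas5 lay at 0.47 and Snhg8 at 0.88, and the remaining 7 host genes lay at 0.21 or less.

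Of 18 proteins that form or assemble snoRNA particles, 1 (5.56%) was higher and 13 (72.2%) were lower in limma. Over all tested genes the shares were 8.66% and 58.5%. The median log2 fold change of the 18 was -0.33, which equals that of all genes. Among the core proteins of box C/D particles, the methyltransferase fibrillarin (Fbl) did not pass the test (log2 fold change 0.00, adjusted p = 0.957 in limma), nor did Nop56 (-0.10) and Nop58 (-0.11), which are also on the list of coding hosts, as is Dkc1. Snu13, also of the box C/D core, was lower without overlap of the libraries (-0.27, adjusted p = 8.1e-04 in limma). Of the H/ACA core, Nhp2 was higher (0.17, adjusted p = 0.0308 in limma, not called in 5 of 17 alternatives, including those without rGST replicate 1 or 2 or rSLURP1 replicate 1, with adjusted p up to 0.101), and the pseudouridine synthase Dkc1 (-0.54), Nop10 (-0.52) and Gar1 (-0.43) were lower. The assembly factors Znhit6 (-1.19), Rpap3 (-0.91) and Znhit3 (-0.56) had the largest decreases of the list, with Dkc1 next. With median-ratio scaling 4 of the 18 were higher and 3 lower.

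Of 22 factors of nonsense-mediated decay and mRNA turnover, 0 were higher and 18 (81.8%) lower in limma, beside 58.5% of all tested genes. The median log2 fold change was -0.44, at a distance of -0.12 from that of all genes before rounding. No other tool was run for this count. Since 0 of the 22 had a log2 fold change above 0, no p-value threshold could have given a higher call. The endonuclease Smg6 had 65.07, 62.55 and 58.04 TPM with rGST and 13.55, 14.63 and 14.78 TPM with rSLURP1. Its log2 fold change was -2.04 (SE 0.0643, limma adjusted p = 5.72e-07). Dhx34 (-1.11) and Dcp2 (-0.66) were also lower. The central helicase Upf1 had -0.60 and its partner Upf2 had -0.43, both lower. With median-ratio scaling 3 of the 22 were higher and 8 lower. The part of these factors in the levels of the host RNAs was not tested.

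**Figure D4:**
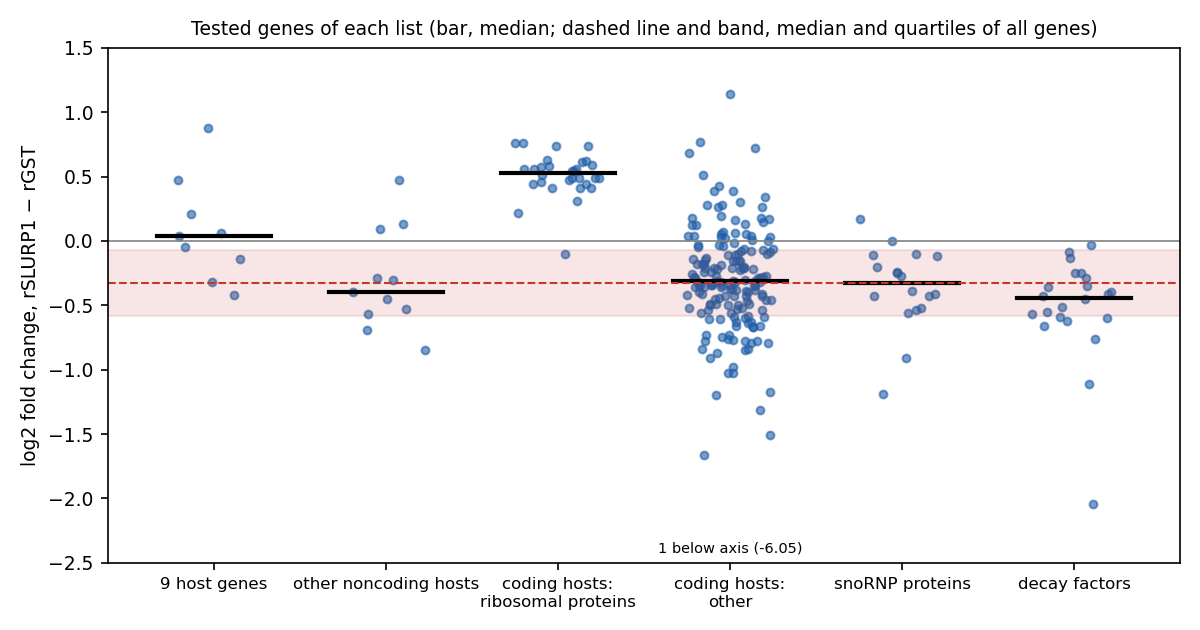
Log2 fold change (rSLURP1 minus rGST, on log2(TPM + 1)) of each tested gene in 6 lists, with a bar at the median of each list; the dashed line and band are the median (-0.33) and quartiles of all tested genes. The medians are 0.04 for the 9 host genes, 0.52 for ribosomal protein hosts and -0.44 for decay factors, and 1 coding host, Itgbl1, lies below the axis.

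Neighbouring genes were described where they overlap a host gene or lie on the opposite strand within 5 kb of its start. Slc3a2, the heavy chain of amino acid transporters, starts 106 bases from Snhg1 and was higher (166.2, 177.77 and 180.71 TPM with rGST; 251.24, 265.95 and 248.07 TPM with rSLURP1; log2 fold change 0.54, adjusted p = 4.91e-05 in limma). Trnau1ap, next to Snhg12, was lower (log2 fold change -0.36, adjusted p = 0.00419 in limma), as was Epb41l4a, next to Epb41l4aos (log2 fold change -0.50, adjusted p = 0.00103 in limma). Zbtb37, which overlaps Gas5 on the other strand, so that their reads cannot be told apart without strand, had 4.02 ± 0.641 and 2.46 ± 1.39 TPM (SD, n = 3 each) and did not pass the test (log2 fold change -0.60, adjusted p = 0.0785 in limma). Rcc1 overlaps Snhg3 on the same strand, so reads could be split between them, and both had a log2 fold change of -0.14. Prss12, next to Snhg8, and Mcmdc2, which overlaps Snhg6 on the other strand, were listed at 0.02 TPM or less in every library. Reads of Mcmdc2 and Snhg6 likewise cannot be told apart without strand where they overlap.

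Of the 31 snoRNA genes inside the 9 hosts, 24 were listed at 0 in all 6 libraries, including all 10 of Gas5, of which 1, typed as a snoRNA in the annotation, is named Mir5117. Snord87 in Snhg6 was listed at 129.26 TPM in 1 rSLURP1 library and at 0 in the other 5, and Snora24 in Snhg8 at 7.75 TPM in 1 rGST library and at 0 elsewhere. Snora73b in Snhg3 was above 0 in every library, at 3.28 to 21.08 TPM. The 3 that entered the test, Snora73b, Snora73a in Snhg3 and Snord22 in Snhg1, did not pass (adjusted p = 0.827, 0.132 and 0.386 in limma).

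Likeness of pattern was measured as Pearson's r of log2(TPM + 1) over the 6 libraries, which share the treatment contrast. The tested genes most like the mean of the 9 hosts were Iba57, Rps19-ps6, Ssu72, Rraga and Slc25a5 (r from 0.9755 to 0.9812), and 55 genes had r above 0.9. Among those most like Snhg8 were Wfdc2, Rpl9, Nfil3 and Rplp1 (r from 0.999 to 0.9996), and 740 genes had r above 0.9. Among the 9, Gas5 and Snhg8 had r of 0.95, Snhg12 and Snhg8 had -0.96, and Snhg1 and Snhg5 had 0.96.

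The labelled cell type was checked against marker genes. Krt18 was at 196 ± 4.13 TPM with rGST and 198 ± 1.68 TPM with rSLURP1 (SD, n = 3 each), and Vim was at 1259 and 665 TPM. Vim was called lower, without overlap of the libraries (log2 fold change -0.92, adjusted p = 9.52e-06 in limma). Krt8 was at only 1.56 and 0.697 TPM and was called lower (log2 fold change -0.60, adjusted p = 0.00968 in limma). The epithelial adhesion genes Epcam and Cdh1, and also Cdh2, were under 1 TPM in every library. The check therefore rests on Krt18 and Vim, and the other markers do not bear out the label. The 6 markers of the line summed to between 1384.33 and 1538.77 TPM with rGST and between 840.48 and 896.77 TPM with rSLURP1, 3 of them were under 1 TPM in every library, and their part in the host gene results was not tested. Markers of leukocytes (5 genes) summed to at most 0.10 TPM and those of endothelium (3 genes) to at most 0.31 TPM in any library.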

How the data were processed

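RNAseq of 6 libraries (3 rGST, 3 rSLURP1) was grouped by the sample titles. The values are TPM as the authors deposited them, 1 per gene and library, estimated by RSEM from reads that Cutadapt had trimmed and STAR had placed on mm10. The submitters' processing notes give STAR 2.5.2b, cutadapt 1.18 and RSEM 1.3.3. The paper names GENCODE M12; of 54146 identifiers, 54079 were found in GENCODE M21 (also mm10), which gave positions. The library kit is TruSeq mRNA in the labels but Smart-seq2 in the paper, and use of strand is not given in the sources used here.

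Tested were the 12301 genes that reached 1 TPM in 3 or more libraries, with limma 3.58.1 (R 4.3.3; eBayes with trend) on log2(TPM + 1) and Benjamini-Hochberg adjustment. TPM is not a count, so the count test of the paper's sorted cells was not used. A log2 fold change on this scale understates changes of low genes. Genes named were all 9 hosts, their neighbours, the 5 genes most alike, the 4 largest changes of each list and members of counts of 5 or fewer. Upf1, Upf2, Fbl, Nop56, Nop58, Snu13, Nop10 and Gar1 were named after their values were seen. Some genes that this rule names are not reported here. The members and lists were chosen with earlier results of these data known. On data simulated for this contrast (12301 genes), 84% of 50 genes changed 2-fold, 56% of 50 changed 1.5-fold and 20% of 50 changed 1.2-fold were called, and 4 unchanged genes. Far fewer genes were changed there than were called in the data (1065 higher and 7200 lower). The adjusted threshold was thus stricter in the simulation, and these shares do not give the sensitivity of the fit reported here.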

Additional observations from a re-analysis of the deposited data

How the results depend on the processing

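Under 17 alternatives, 128 of 153 values of the 9 genes kept both direction and call. Median-ratio scaling gave 3274 higher and 3029 lower genes, with 6 and 0 of the 9 hosts and a host median of 0.40; quantile normalization gave 3111 and 2905, with 6 and 0 hosts and 0.33; and the length and GC correction gave 2955 and 3018, with 4 and 1 hosts and 0.13, which is also its distance from the median of all genes. By construction, these settings center all genes near 0. Without a filter, that distance was 0.14 in place of 0.37, with 23334 genes in the fit. Snhg3 reversed to 0.21 and 0.25, Snhg12 to 0.03 and 0.04 and Snhg15 to 0.30 and 0.30 with median-ratio scaling and quantile normalization. With 1 library left out, Snhg15 ran from -0.14 to 0.04, above 0 without rGST replicate 3 (0.01) or rSLURP1 replicate 1, and Snhg6 ran from -0.01 (without rSLURP1 replicate 2) to 0.08. Epb41l4aos was -0.07 and -0.05 with the first 2 scalings, and Snhg12 was -0.11 with the length and GC correction; none of these passed the test.

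Leaving out 1 library gave 906 to 1020 higher and 6605 to 6999 lower genes, 2 to 3 hosts higher and 2 lower. Without rGST replicate 2, Snhg1 was called higher (0.30). The replicate number as a block gave 1008 higher and 6954 lower genes, and 3 hosts higher, Snhg1 included (0.21, adjusted p = 0.00913 in limma), and 2 lower. The same-numbered libraries' deviations from group means had correlations from -0.0607 to -0.034, so the numbers were not taken as pairs. The block with the length and GC correction gave 2745 and 2781 genes, 4 and 1 hosts and a median of 0.13, with the same distance. Depth is unknown, so its effect on low genes could not be assessed.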
